A study of Mus musculus with 21 samples.

Results

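Brain endothelial cells line the capillaries of the hippocampus and form the blood-brain barrier, and 10 genes that mark these cells or build the barrier were followed here in mice after maternal separation (MS) and after standard rearing (SR). The genes were given by name for their known roles, with earlier results of these data known. Pecam1, Cdh5, Esam and Ly6c1 are genes of endothelial identity and adhesion, and Cldn5 is a tight junction gene. Flt1 and Tek encode growth factor receptors, and Slc2a1, Abcb1a and Mfsd2a encode transporters. All 10 were found among the 55487 genes of the count table, and all 10 were among the 18146 genes that passed the filter on low counts. Hippocampal poly-A RNA came from 21 male wild type C57BL/6 mice killed at 10 weeks of age, with 1 sequenced library per mouse, 9 of MS and 12 of SR. In MS, whole nests were taken from the dam for 4 hr per day from postnatal day 10 to 17, and part of the nesting material was removed from their home cages, whereas SR mice stayed with the dam. Animal numbers in the labels run in 7 sets of 3 consecutive numbers, each of 1 condition, called A to C for MS and D to G for SR (mouse A1 is the lowest number of set A). The labels name no nest, so p-values measure the spread between mice, some of which were litter mates.

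In most tissues the capillary wall lets small molecules pass between its cells, but brain endothelial cells are sealed to each other by tight junctions, carry few transport vesicles and move nutrients and drugs through dedicated transporters. These properties are induced and kept up by pericytes, by Wnt ligands from neural cells and by contact with astrocyte endfeet. Angiopoietins acting on Tek and vascular endothelial growth factors acting on their receptors control how stable and how permeable the vessels are. Endothelial cells are a small fraction of the hippocampus, so their RNA is diluted in bulk tissue, and fewer endothelial cells cannot be told apart from less RNA per cell.

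Promoter sequences are shown for Cldn5, which had the largest difference between MS and SR of the 10 genes, for Flt1, whose level followed that of Cldn5 most closely over the mice, and for Tek, the angiopoietin receptor, as the other growth factor receptor. They are the 250 bases before the start of the gene in RefSeq on GRCm38.p6, printed 5′ to 3′ on the strand of the gene, and the table held such a sequence for 7 of the 10 genes. Capitals mark CAGGAA, a core bound by ETS factors, or GGGCGG, a GC box, on either strand. The Cldn5 sequence lies at chr16:18776597-18776846 on the + strand, the Flt1 sequence at chr5:147726012-147726261 on the - strand and the Tek sequence at chr4:94739039-94739288 on the + strand.
Cldn5: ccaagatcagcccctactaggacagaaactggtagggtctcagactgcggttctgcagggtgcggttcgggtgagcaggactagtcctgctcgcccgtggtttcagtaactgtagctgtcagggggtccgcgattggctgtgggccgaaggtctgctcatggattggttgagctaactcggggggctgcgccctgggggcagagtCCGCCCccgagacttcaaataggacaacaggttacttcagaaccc
Flt1: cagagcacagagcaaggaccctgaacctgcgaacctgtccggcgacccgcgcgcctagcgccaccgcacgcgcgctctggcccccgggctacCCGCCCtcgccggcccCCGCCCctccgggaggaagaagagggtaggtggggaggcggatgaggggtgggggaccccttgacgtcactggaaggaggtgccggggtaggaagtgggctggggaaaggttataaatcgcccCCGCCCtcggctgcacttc
Tek: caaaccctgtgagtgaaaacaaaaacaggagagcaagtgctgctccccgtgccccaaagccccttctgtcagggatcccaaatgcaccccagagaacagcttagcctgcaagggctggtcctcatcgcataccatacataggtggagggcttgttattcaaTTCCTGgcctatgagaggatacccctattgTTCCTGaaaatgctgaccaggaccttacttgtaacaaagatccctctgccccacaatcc
The promoters differed in composition. Flt1 had a GC content of 70.4% with 23 CpG dinucleotides, Cldn5 59.6% with 12 and Tek 51.2% with 2, where the median of all 32851 promoters was 52.4% with 6. Flt1 held 3 GC boxes and Cldn5 held 1, and 32.7% of all promoters held at least 1. Tek held no GC box but 2 matches of CAGGAA, which 25.7% of all promoters held, and 2 of CAAAG, a core bound by TCF and LEF factors that 48.6% held and that is not capitalized here. The 3 motifs were searched on both strands and a match is a string of letters, not a shown binding site.

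One MS library, A2, was set aside before the comparison because it stood apart from the other 20. On the first principal component of all 21 libraries it had a score of 27.1, where the others had -12.2 to 11.9. Dsp, which marks granule cells of the dentate gyrus, was at 0.696 CPM (counts scaled to the TMM-normalized library total) in A2 and at 53.7 to 139 CPM in the other libraries, so the marker of the labelled tissue was present in those 20. The comparison used 8 MS and 12 SR mice, and total counts of the 21 libraries were 17276810 to 30449055. The 10 genes had between 222 counts (the lowest of Tek) and 2731 counts (the highest of Slc2a1) per mouse and the spread between mice includes this counting error, which weighs most on Tek.

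All 10 genes were expressed in every mouse. Per length of their exons, Slc2a1 and Cldn5 were the most abundant, with 27.1 ± 2.97 and 21.6 ± 4.52 RPKM (CPM per kilobase of exon; SD, n = 20 mice). Ly6c1 had 13.4 RPKM, Mfsd2a 9.80 RPKM, Abcb1a 6.62 RPKM, Flt1 5.37 RPKM and Esam 5.01 RPKM. Cdh5 had 3.50 RPKM, and Pecam1 and Tek were the lowest with 2.87 and 2.86 RPKM. The ranges over mice overlapped between all neighbours in this order except Esam (4.27 to 6.23 RPKM) and Cdh5 (2.79 to 4.19 RPKM). Within a mouse the order was steadier: Cldn5 lay above Ly6c1, Ly6c1 above Mfsd2a, Mfsd2a above Abcb1a, Abcb1a above Flt1, Esam above Cdh5 and Cdh5 above Pecam1 in 20 of 20 mice. Slc2a1 lay above Cldn5 in 15 of 20, Flt1 above Esam in 16 and Pecam1 above Tek in 11. Cldn5 varied most between mice, with a coefficient of variation of 20.97%, and the other 9 genes had 8.57% (Ly6c1) to 12.4% (Flt1).

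The main question was whether these genes differ between MS and SR mice. The endothelial and barrier genes were at about the same level in both: 9 of the 10 had log2 fold changes between -0.046 (Abcb1a) and 0.10 (Ly6c1). Cldn5 had the largest difference, with a mean 0.25 higher in MS on the log2 scale, and it did not pass the test. Both groups of mice overlapped for every gene. For Pecam1, Cdh5, Esam, Ly6c1, Flt1, Tek, Slc2a1 and Abcb1a the top of the SR range was the same mouse, E2. That mouse had 81.6 CPM of Penk, a gene of striatal neurons, where the other SR mice had 13.9 to 24.5. The part of striatal tissue in its values was not tested. None of the 10 genes passed the threshold of edgeR's quasi-likelihood test (adjusted p under 0.05 over all genes tested), against a background of 0.011% of genes called (2 of 18146, Gng5 and Spef1, both higher in MS). None had an unadjusted p under 0.05 either, where 11.5% of all genes did. DESeq2's Wald test and limma-voom called none of the 10 as well, and in each of them Cldn5 alone had an unadjusted p under 0.05. The median log2 fold change of the 10 genes was 0.041 and their median absolute change 0.046, against 0.00084 and 0.071 over all genes tested, and 7 of 10 were positive.

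**Figure D1:**
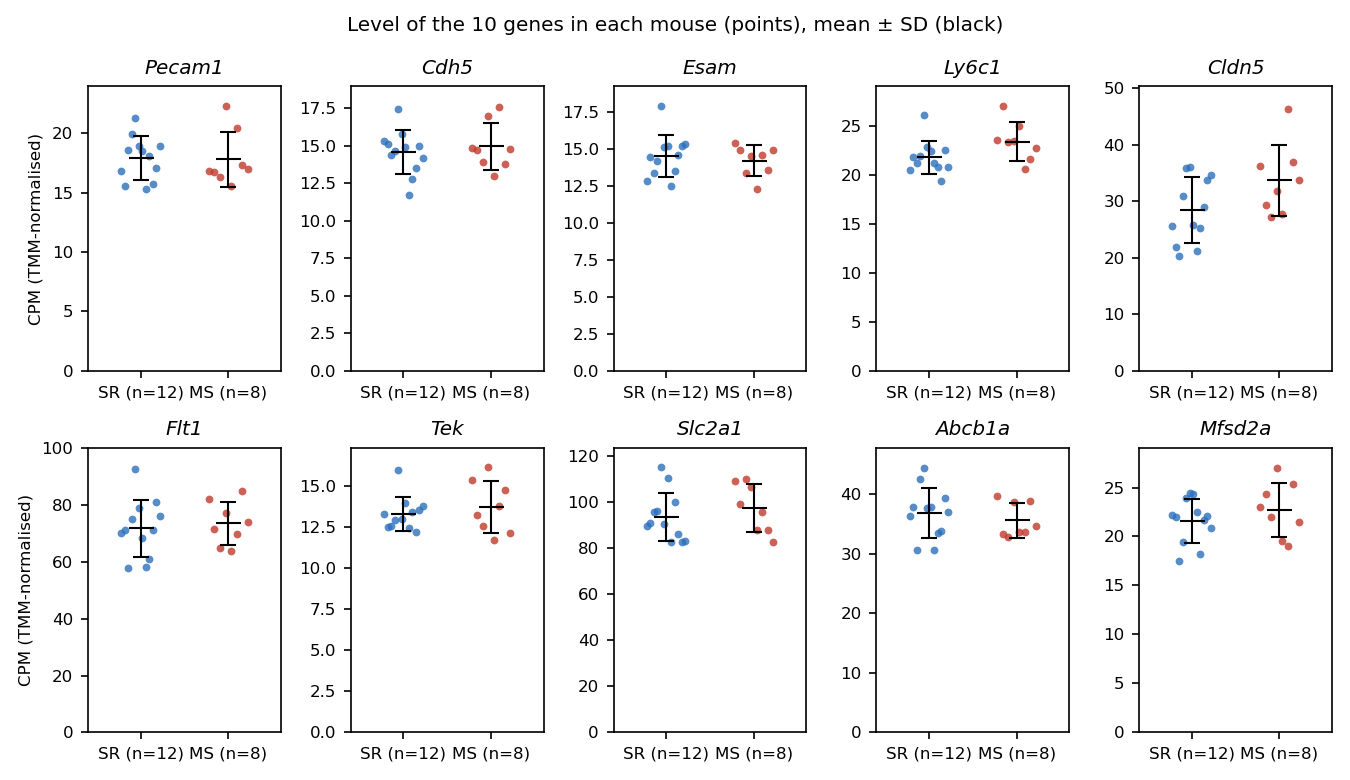
Level of each of the 10 genes in CPM (vertical axes, starting at 0) in 12 SR (blue) and 8 MS mice (red), with 1 point per mouse and black bars for the mean ± SD. The groups overlap for every gene, and Cldn5 has the largest shift, from a mean of 28.4 CPM in SR to 33.7 CPM in MS.

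Claudin-5, the product of Cldn5, is the main sealing protein of tight junctions between brain endothelial cells. Cldn5 (ENSMUSG00000041378, chr16:18776847-18778262 of GRCm38, the build of all positions here) had 20.4 CPM in the lowest SR mouse, a median of 27.5 and 36.1 in the highest. In MS it had 27.3 CPM in the lowest mouse, a median of 32.8 and 46.3 in the highest. The groups overlapped, but 7 of 8 MS mice lay above the SR median, 3 lay above the highest SR mouse, and 6 of 12 SR mice lay below the lowest MS mouse. The means were 33.7 ± 6.24 (SD, n = 8) and 28.4 ± 5.82 CPM (SD, n = 12). The log2 fold change was 0.25 (SE 0.122), with a 95% interval of -0.0066 to 0.50 and an adjusted p of 0.450 in edgeR (unadjusted p = 0.0557). The interval thus runs from no difference to one beyond 1.3-fold. The value moved with the mice included, from 0.10 without set C (adjusted p = 0.738) to 0.36 without set B (adjusted p = 0.414), and with the counts summed within each set the adjusted p was 0.773.

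Pecam1 and Cdh5 encode adhesion proteins of the contacts between endothelial cells: PECAM-1 holds neighbouring cells together and binds leukocytes on their way through, and VE-cadherin is the core of the adherens junction. Pecam1 (ENSMUSG00000020717, chr11:106654217-106750628) had 15.3 to 21.3 CPM in SR with a median of 18.3, and 15.6 to 22.3 CPM in MS with a median of 16.9. Only 2 of 8 MS mice lay above the SR median, though the means of 17.8 ± 2.29 in MS and 17.9 ± 1.83 CPM in SR were almost equal. Its log2 fold change was -0.0072 (95% interval -0.15 to 0.14, adjusted p = 0.984). Cdh5 (ENSMUSG00000031871, chr8:104101625-104144511) had 11.7 to 17.5 CPM in SR and 13.0 to 17.6 CPM in MS, with medians of 14.8 in both. The groups overlapped over most of their range, and the log2 fold change was 0.037 (95% interval -0.10 to 0.18, adjusted p = 0.882).

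Esam (ENSMUSG00000001946, chr9:37528078-37538319) encodes an adhesion molecule of the immunoglobulin family at endothelial tight junctions. It had 12.5 to 17.9 CPM in SR with a median of 14.5 and 12.2 to 15.4 CPM in MS with a median of 14.5. The groups overlapped, with the highest mouse in SR, and the log2 fold change was -0.033 (95% interval -0.16 to 0.093, adjusted p = 0.886). Ly6c1 (ENSMUSG00000079018, chr15:75044018-75048830) encodes a lipid-anchored surface protein abundant on brain endothelium. It had 19.4 to 26.2 CPM in SR with a median of 21.6 and 20.6 to 27.1 CPM in MS with a median of 23.4. As for Cldn5, 7 of 8 MS mice lay above the SR median, but only 1 above the highest SR mouse. The log2 fold change of Ly6c1 was 0.10 (SE 0.0529, 95% interval -0.0084 to 0.21), with an unadjusted p of 0.0688 and an adjusted p of 0.478 in edgeR. The transcript of Ly6c1 is 97.6% identical to that of Ly6c2 over 822 bases, so reads could be split between them, but Ly6c2 had at most 6 counts in a mouse.

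**Figure D2:**
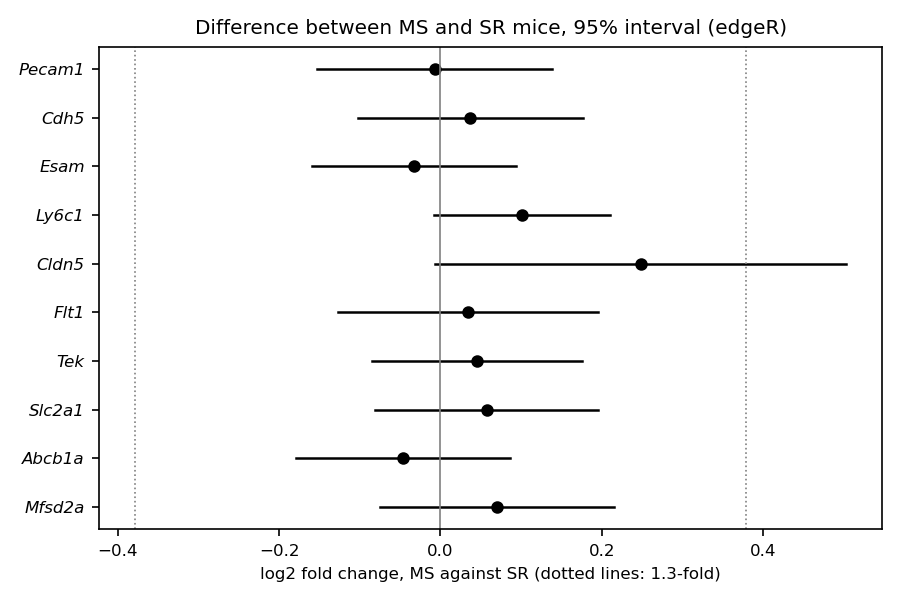
Log2 fold change of each gene between 8 MS and 12 SR mice (points) with its 95% interval from edgeR (lines). Every interval spans 0, and the interval of Cldn5 is the one that passes the dotted line at 1.3-fold.

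Flt1 and Tek are receptor tyrosine kinases of the vessel wall. Flt1 is a receptor for VEGF-A that acts largely as a trap for it, and Tek is the angiopoietin receptor Tie2. Flt1 (ENSMUSG00000029648, chr5:147561604-147726011) had 57.7 to 92.8 CPM in SR with a median of 71.3 and 64.0 to 84.8 CPM in MS with a median of 72.9. The MS mice lay inside the SR range, whose top was mouse E2. The next SR mouse, G2, had 81.2 CPM, and MS mice A1 and C2 had 82.1 and 84.8 CPM. The log2 fold change of Flt1 was 0.034 (95% interval -0.13 to 0.20, adjusted p = 0.910 in edgeR). Tek (ENSMUSG00000006386, chr4:94739289-94874976) had 12.2 to 16.0 CPM in SR with a median of 13.2 and 11.7 to 16.2 CPM in MS with a median of 13.5. Its groups overlapped over almost their whole range, with a log2 fold change of 0.045 (95% interval -0.085 to 0.17, adjusted p = 0.833).

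The 3 transporters carry out different tasks of the barrier. Slc2a1 (ENSMUSG00000028645, chr4:119108711-119137983) encodes GLUT1, which brings glucose into the brain. It had 82.7 to 115 CPM in SR with a median of 90.5 and 82.5 to 110 CPM in MS with a median of 97.3, so the groups shared their range, and the log2 fold change was 0.057 (95% interval -0.081 to 0.20, adjusted p = 0.790). The antisense genes Gm12868 and Gm12867 overlap Slc2a1, and with at most 28 and 12 counts in a library they could add little to it. Abcb1a (ENSMUSG00000040584, chr5:8660077-8748575) encodes P-glycoprotein, which pumps drugs back into the blood. It had 30.5 to 44.4 CPM in SR with a median of 37.4 and 32.7 to 39.7 CPM in MS with a median of 34.1. The MS mice lay inside the SR range, 3 of 8 above its median, and the log2 fold change was -0.046 (95% interval -0.18 to 0.086, adjusted p = 0.832). Its close copy Abcb1b, 87.7% identical over 4000 bases, had 5.37 ± 0.424 CPM in MS and 5.74 ± 0.875 CPM in SR. Mfsd2a (ENSMUSG00000028655, chr4:122946850-122961188) encodes the carrier of lysophosphatidylcholine with omega-3 fatty acids and keeps vesicle traffic across the endothelium low. It had 17.5 to 24.5 CPM in SR with a median of 22.0 and 19.1 to 27.0 CPM in MS with a median of 22.5, with 2 MS mice above the highest SR mouse. The log2 fold change of Mfsd2a was 0.070 (95% interval -0.075 to 0.22, adjusted p = 0.748). For the 9 genes other than Cldn5 the 95% intervals stayed within 0.22 on the log2 scale in either direction, so a 1.3-fold change of any of them lay outside its interval. These intervals treat mice as independent although whole nests were assigned, so they do not measure the spread between litters and do not exclude such a change.

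The mice of the study fall into sets, and within SR the set means of Cldn5 ran from 22.7 to 34.4 CPM. In SR its mean was 34.4 ± 2.94 CPM in set E and 32.5 ± 3.05 CPM in set G, but 24.1 ± 2.61 CPM in set F and 22.7 ± 2.72 CPM in set D (SD, n = 3 mice each). Every mouse of sets E and G, from 29.0 CPM up, lay above every mouse of sets D and F, up to 25.9 CPM. This split of the SR sets was chosen after the values were seen. How many of all genes separate the SR sets in such a way was not counted. In MS the mean was 39.0 ± 6.52 CPM in set C, 29.0 ± 2.50 CPM in set B and 32.8 CPM over the 2 remaining mice of set A. An edgeR F-test of the 5 differences between sets within conditions gave Cldn5 an unadjusted p of 0.000111 and an adjusted p of 0.135, so it did not pass the threshold. None of the 10 genes was called between sets, against 0.0331% of all genes (6 of 18146). At an unadjusted p under 0.05 the genes were Cldn5 and Flt1, 2 of 10, where 9.09% of all genes were.

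Flt1 also had its highest SR means in sets E and G. Its mean was 82.3 CPM in set E and 76.2 CPM in set G, against 66.4 CPM in set D and 62.5 CPM in set F. In MS it was 76.9 CPM in set A, 76.2 CPM in set C and 68.7 CPM in set B. The test between sets gave Flt1 an unadjusted p of 0.00971 and an adjusted p of 0.455 in edgeR. Ly6c1 had another order, with its highest means in sets A (25.3 CPM), B (24.0 CPM) and E (23.7 CPM) and lower means, of up to 21.7 CPM, in the other 4 sets. Slc2a1 was lowest in sets G (83.9 CPM) and C (88.6 CPM), whose animal numbers are the highest of the study. Mfsd2a and Tek were the most even, with set means of 20.6 to 23.6 CPM and 12.8 to 14.3 CPM.

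**Figure D3:**
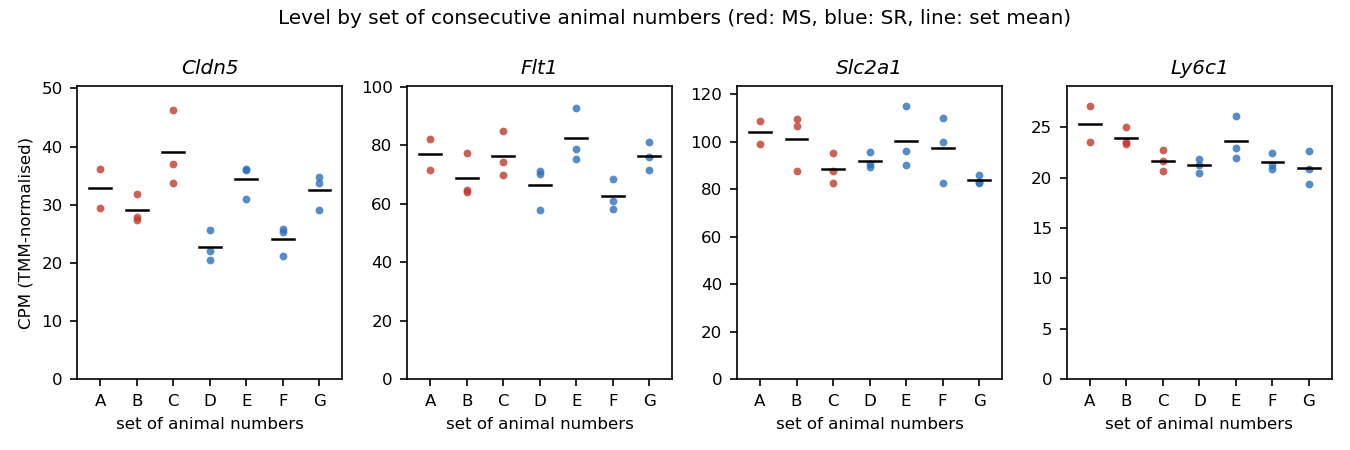
Level of Cldn5, Flt1, Slc2a1 and Ly6c1 in CPM (vertical axes, starting at 0) in each mouse (points), by set of consecutive animal numbers, with A to C MS in red, D to G SR in blue, and a line at the mean of each set. Sets E and G stand above sets D and F for Cldn5, with no SR mouse in between, a split chosen after the values were seen.

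The animal numbers fall into a lower range (sets A, B, D, E and F) and a higher range (sets C and G), each with MS and SR mice. Cldn5 was higher in MS in both, by 0.18 on the log2 scale in the lower range (adjusted p = 0.590 in edgeR) and by 0.27 in the higher range (adjusted p = 0.937). Ly6c1 differed by 0.15 in the lower range and 0.048 in the higher range. A test of the difference between the ranges (the interaction) called no gene in edgeR, and none of the 10 genes had an unadjusted p under 0.05, where 8.67% of all genes did. The smallest was that of Ly6c1 with 0.349.

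Over the 20 mice the levels of the 10 genes were positively correlated. All 45 pairs of genes had a positive correlation of log2 CPM, with a median Pearson r of 0.47 and a range of 0.060 to 0.86. The median was 0.48 on deviations from the condition means and 0.58 within the lower range of animal numbers (14 mice). It was 0.36 when the 2 mice farthest from the median of the first gene of each pair were left out. The first gene is the earlier in the order Cldn5, Pecam1, Flt1, Slc2a1, Abcb1a, Mfsd2a, Tek, Cdh5, Esam, Ly6c1. Over the 6 mice of the higher range the median r was 0.12, with 20 of the 45 pairs negative. Values there ran from -0.73 (Mfsd2a and Cdh5) to 0.95 (Flt1 and Abcb1a). With permutation tests adjusted over the 45 pairs, 19 pairs passed the threshold by Pearson's r, 7 by Spearman's rho and 20 by r on deviations from the condition means. The permutations moved single mice and not whole sets, so mice of the same set were treated as independent. The values of a pair come from the same libraries and share their depth and tissue composition. The share of called pairs among all genes tested was not computed, so these counts have no background beside them.

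Flt1 and Abcb1a were the closest pair, with r = 0.86 (permutation p = 1e-05, the smallest the draws can give, and 0.00045 adjusted) and rho = 0.83 (adjusted permutation p = 0.0009). Without the 2 mice farthest from the median of Flt1 r was 0.79. It was 0.90 in the lower and 0.95 in the higher range of animal numbers. Cldn5 was closest to Flt1, with r = 0.72 (adjusted permutation p = 0.00405) and rho = 0.79 (adjusted permutation p = 0.00135). That relation had r = 0.83 without the 2 mice farthest from the median of Cldn5. Its r was 0.85 in the lower range, but -0.14 over the 6 mice of the higher range. By Pearson's r Tek passed with 7 of the other 9 genes and Flt1 with 6, but by Spearman's rho Tek passed with 2 and Flt1 with 3, and on deviations from the condition means both passed with 6. By Pearson's r Ly6c1 passed with none and Slc2a1 only with Tek. Cldn5 and Slc2a1, the junction gene and the glucose transporter, had the lowest correlation of all pairs, with r = 0.060 (adjusted permutation p = 0.799) and rho = -0.024 (adjusted permutation p = 0.937).

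**Figure D4:**
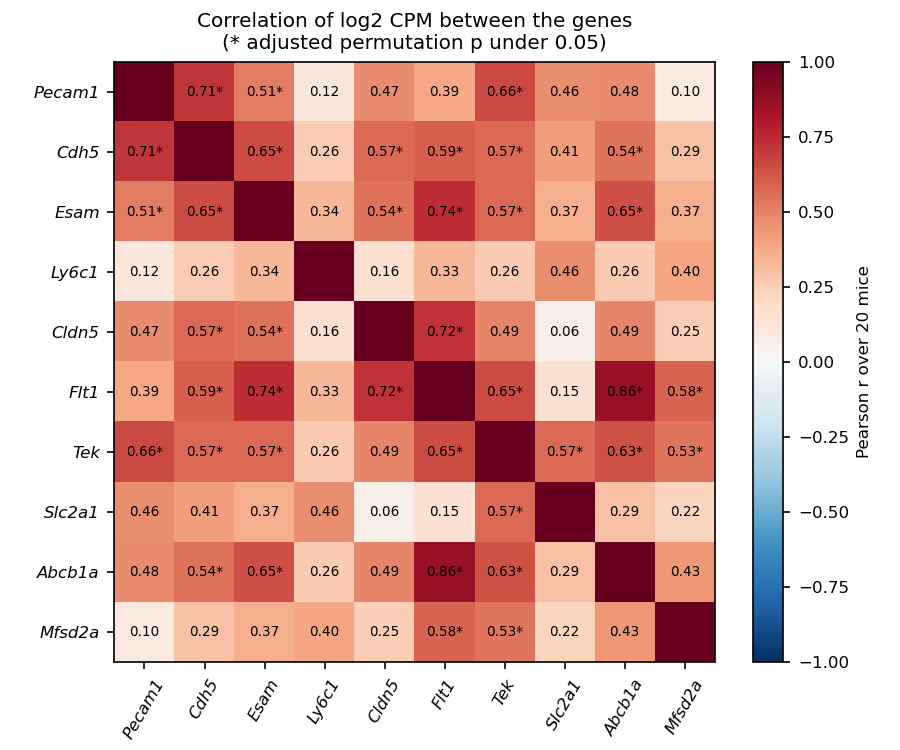
Pearson r of log2 CPM between each pair of the 10 genes over 20 mice, as numbers and as colour from -1 (blue) to 1 (red), with a star where the adjusted permutation p is under 0.05. All pairs are positive, Flt1 and Abcb1a reach 0.86, and the lines of Ly6c1 and Slc2a1 are the palest.

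The genes whose level was most like that of the 10 were sought among all others by Pearson's r with the mean of the 10 standardized log2 CPM values over 20 mice, as a description with no test. Cfp, which encodes properdin of the complement system, was the most alike with r = 0.83. Among the 10 most alike were also Nr1h2, Ppard and Klf4 with 0.82 each, which encode transcription factors, Scrib with 0.80, and Akt2, Glul, Zfp692 and Rgl2 with 0.79 each. None of these genes is on the endothelial list described next. Glul, the glutamine synthetase gene, is abundant in astrocytes. Of 26 further genes of endothelial identity, 14 had r above 0.5 and the median was 0.55, where 6.08% of all genes had r above 0.5 and the median was 0.0081. Other lists were also above the median of all genes, with 0.38 for astrocyte endfeet, 0.34 for microglia and border macrophages, 0.32 for pericytes, 0.30 for striatal neurons and 0.30 for smooth muscle. The choroid plexus list had a median of -0.083, and the dentate granule cell list -0.46 with none of its 7 genes above 0.

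Wider lists of vascular genes were described with the same fit, and none of their genes passed the threshold in edgeR. Of the 26 endothelial identity genes 14 were positive, the median log2 fold change was 0.029, and 1 had an unadjusted p under 0.05 (11.5% of all genes did), Sox18, a transcription factor of vessel formation, with 0.20 (adjusted p = 0.330). Kdr, the main signalling receptor for VEGF-A, had the largest difference on this list, 0.21 (adjusted p = 0.531). Among 18 junction and adhesion genes 3 had an unadjusted p under 0.05, all positive, and the median was 0.099, though -0.090 in the higher range of animal numbers. Ocln, which encodes the tight junction protein occludin, had 16.3 ± 1.00 CPM in MS and 13.3 ± 1.53 CPM in SR, a log2 fold change of 0.29 (SE 0.0640, adjusted p = 0.111 in edgeR), and it passed with DESeq2's Wald test (adjusted p = 0.0141). F11r, which encodes the junction protein JAM-A, had 0.30 (adjusted p = 0.387), and Cldn3 0.79 (adjusted p = 0.346) at 1.53 and 0.876 CPM. Marveld3, another tight junction gene, had the largest difference, 1.04 (adjusted p = 0.485), at 1.00 and 0.465 CPM.

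Beside these differences stood the genes of choroid plexus epithelium, which is also sealed by tight junctions. All 10 of them were positive, with a median log2 fold change of 0.90, though none had an unadjusted p under 0.05. Clic6 had 1.08 and Prlr 1.03 (adjusted p = 0.549 and 0.501). The direction differed between the ranges of animal numbers: the median was 1.61 in the lower range, with 10 of 10 positive, and -1.11 in the higher range, with 0 of 10 positive. The higher range held only set C of MS and set G of SR, with 3 mice each. In set G, mouse G2 had 46.2 CPM of Prlr and G1 and G3 had 4.65 and 17.0, where set C had 3.15 to 20.1. The interaction test called no gene. Their summed level was 58.2 to 4306 CPM in MS with a median of 3406, and 33.5 to 4636 CPM in SR with a median of 861. Ttr, the most typical of them, was at no less than 10.5 CPM in any mouse compared, and at 5.30 CPM in A2, which was set aside. The mean level of the choroid plexus genes was also used as a term, an alternative chosen after seeing the data. With it the log2 fold change was 0.30 for Cldn5 (unadjusted p = 0.0289, adjusted p = 0.540 in edgeR) and 0.072 for Ly6c1. It was 0.23 for Ocln, 0.31 for Marveld3 and 0.13 for Vcam1, a venous gene with 0.26 without that term. These are some of the genes named, and F11r and Cldn3 are not among them. The part of choroid plexus tissue in these values was not tested.

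Of 22 transporters of the barrier, 3 (13.6%) had an unadjusted p under 0.05, against 11.5% of all genes, all negative, and the median was -0.024. They were Slc6a6, the taurine transporter, with -0.16 (adjusted p = 0.145 in edgeR, and 0.0279 in DESeq2's Wald test, which passed), Tfrc, the transferrin receptor that brings in iron, with -0.15 (adjusted p = 0.168), and Slc7a5, the carrier of large neutral amino acids, with -0.13 (adjusted p = 0.289). These carriers are also expressed by neurons and glia. Slco1c1, which carries thyroid hormone, had the largest difference, 0.27 (adjusted p = 0.444). On the list of vesicle traffic 1 of 7 genes had an unadjusted p under 0.05, Emp1 with 0.46 (adjusted p = 0.229). Of 19 genes of Wnt and Norrin signalling there were 2, among them the co-receptor Lrp5 with 0.19 (adjusted p = 0.349), and of 13 genes of VEGF and angiopoietin signalling none. Arterial genes had 1 of 9 (Sema3g, 0.22, adjusted p = 0.275), venous genes 1 of 7 (Vcam1, 0.26, adjusted p = 0.319) and pericyte genes 1 of 14 (Cd248, -0.24, adjusted p = 0.324), with medians of 0.056, 0.048 and -0.040. Smooth muscle genes had none of 8 and a median of 0.023, and Myh11, the myosin of smooth muscle, had -0.20. With lists of this size, 1 or 2 genes are about what the share over all genes gives.

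**Figure D5:**
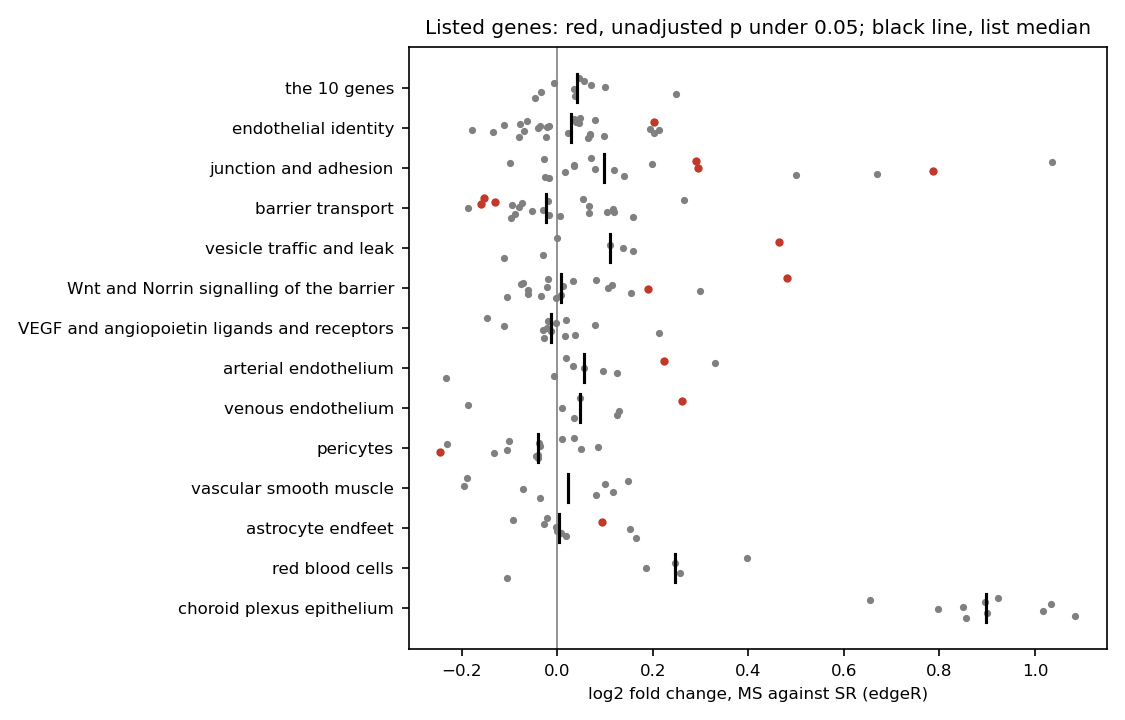
Log2 fold change between MS and SR mice for each gene (points) of the 10 genes and of 13 wider lists, with red points for an unadjusted p under 0.05 and a black line at the median of the list. The 10 genes lie close to 0 apart from Cldn5 at 0.25, and the choroid plexus genes lie farthest to the right, with a median of 0.90.

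The library set aside, A2, had more of the endothelial genes than the SR mice. All 10 genes lay above the highest SR mouse in it, where 23.8% of all genes did, at 1.26 (Mfsd2a) to 1.65 times (Cldn5) the SR median. For 9 of the 10 it was the highest of all 21 libraries, and for Cldn5, with 45.4 CPM, mouse C1 was higher with 46.4 CPM. Of the 26 further endothelial genes 19 lay above the highest SR mouse, of the smooth muscle genes 7 of 8, of the arterial genes 8 of 9 and of the pericyte genes 7 of 14. Venous genes were 2 of 7 above and 2 of 7 below. Genes of microglia and border macrophages were above in 8 of 10. All 8 genes of striatal neurons were above as well, at a median of 23.5 times the SR median. Below the lowest SR mouse lay 6 of 7 granule cell genes, 6 of 8 pyramidal cell genes and 6 of 10 choroid plexus genes. Over all genes tested, 3955 of 18146 lay below it. With A2 included, all 10 endothelial genes had a positive log2 fold change, from 0.041 (Abcb1a) to 0.30 (Cldn5). None was called, and Cldn5 and Ly6c1 had an unadjusted p under 0.05 (adjusted p = 0.350 and 0.343 in edgeR). The part of the striatal, granule cell, pyramidal cell and choroid plexus differences of A2 in these values was not tested.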

How the data were processed

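Libraries of hippocampal poly-A RNA from 9 MS and 12 SR mice were made with a directional kit. The authors mapped the reads to GRCm38 with STAR (2.7.3a in the submitters' processing notes), counted them per Ensembl gene with featureCounts and deposited raw counts, neither normalized nor filtered. Whether counting used the strand is not given in the sources used here. Symbols, positions and exon lengths are those of GENCODE M21.

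Mice were grouped by the rearing condition in the labels. As the study removed 1 outlier by PCA, the library farthest from the median on the first component of the 500 most variable genes (variance-stabilised in DESeq2 1.42.0) was left out. Genes were kept by filterByExpr (minimum count 10), scaled by TMM and compared with the robust quasi-likelihood test of edgeR 4.0.16 (R 4.3.3). P-values were adjusted after Benjamini and Hochberg over all 18146 genes tested, with a threshold of 0.05. CPM and RPKM were computed from these counts, log2 CPM with a prior count of 2. A standard error is the absolute log2 fold change over the root of F. Pairs of genes were tested with 100000 permutations. Transcripts were compared with BLAST+ 2.17.0. The scripts were tested on simulated data. Total counts per library were 17276810 to 30449055, and the spread between mice includes the counting error.

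The 10 genes were named for their known roles. That choice, the wider lists and the tests were made with earlier results of these data known. The other genes named are, in each list, the one with the smallest p and the one with the largest difference, the genes called, the near copies Ly6c2 and Abcb1b and the 10 most alike in level. Some genes that this rule names are not reported here. Beyond this rule, the remaining genes of the vascular lists with an unadjusted p under 0.05, Dsp, Penk and Ttr were chosen after their values were seen. Alternatives were all 21 libraries, DESeq2's Wald test and size factors, other filters, a term for the range of animal numbers or each range alone, limma-voom (limma 3.58.1) blocked by set, sums of counts per set, and each library and set left out in turn. A choroid plexus score and a trend with transcript length as terms were added after seeing the data.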

Additional observations from a re-analysis of the deposited data

Results flagged for a closer look

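Library A2, which was left out of the comparison, held each of the 10 endothelial genes above the highest SR mouse when all 21 libraries were normalized together. It had 45.4 CPM of Cldn5 against 35.9 in the highest SR mouse, 25.3 CPM of Pecam1 against 21.2, 20.5 CPM of Cdh5 against 17.4, 21.3 CPM of Esam against 17.8 and 34.2 CPM of Ly6c1 against 26.1. For the receptors it had 106 CPM of Flt1 against 92.4 and 18.3 CPM of Tek against 15.9. For the transporters it had 147 CPM of Slc2a1 against 114, 55.4 CPM of Abcb1a against 44.2 and 27.8 CPM of Mfsd2a against 24.3.

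None of the 10 endothelial genes had a mouse that stood apart from its MS group by Dixon's test, which was applied to the 8 MS mice. Among the other genes named, 3 had such a mouse. C1 had 34.3 CPM of the microglial gene C1qa, where the next MS mouse had 27.1, and 106 CPM of the pyramidal cell gene Bok, where the next had 76.8. B1 had 249 CPM of Ppp1r1b, where the next had 82.2, and this is a gene of striatal neurons. Chance alone marks about 1 in 20 groups.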

How the results depend on the processing

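None of the 10 endothelial genes was called under any of the 39 alternatives, and their median log2 fold change stayed between 0.014 and 0.10. Cldn5 (0.10 to 0.36), Ly6c1 (0.048 to 0.17), Slc2a1, Mfsd2a and Tek stayed positive in all 39. Cldn5 had an unadjusted p under 0.05 in 14 of them and Ly6c1 in 9, with a lowest adjusted p of 0.292 and 0.127.

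The number of all genes called, 2 in the comparison as reported, became 1 with all 21 libraries, 134 with DESeq2's Wald test, 1 with no filter on low counts, 0 with limma-voom blocked by set, 0 with counts summed per set, 230 in the lower and 0 in the higher range of animal numbers, 0 without set A, B, D or F, 340 without set C, 1 without set G and 0 with the choroid plexus score as a term. Leaving out each library gave 0 to 109. Between sets, the number of genes called was 6, and 2 to 14 when each library was left out. The causes were not tested.

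Some differences changed sign. Pecam1 became 0.060 with all 21 libraries, 0.084 in the higher range, 0.019 without set A, 0.051 without set E, 0.0015 with the choroid plexus score, and lay between -0.062 and 0.018 when each library was left out. Abcb1a became 0.041 with all 21 libraries and 0.018 without set E. Esam became 0.047 with all 21 libraries, 0.014 without set B and 0.0075 without set E. Flt1 became -0.0049 without set D and -0.029 without set F. Cdh5 became -0.00053 in the lower range and -0.012 without set F, and lay between -0.00075 and 0.064 with each library left out. Among the other genes named, Myh11 (-0.20 as reported) became 0.14 with all 21 libraries. In the higher range Kdr (0.21 as reported) became -0.13, Slco1c1 (0.27) -0.14, Myh11 0.0099, Igf2 (0.76) -0.64, Prlr (1.03) -1.09, Clic6 (1.08) -0.88, Stxbp6 (-0.13) 0.0036 and Ppp1r1b (0.48) -0.15. Without set B Ppp1r1b became -0.026. Bok (0.16) became -0.014 in the lower range and -0.060 without set C. Depth limits Tek, with 222 counts in its lowest mouse, more than the other 9 endothelial genes, and Ly6c2, with at most 6 counts, could not be compared.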

Other observations

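Other cell types of the hippocampus were described with the same fit, and none of their listed genes passed the threshold in edgeR. Over all genes tested 11.5% had an unadjusted p under 0.05, which is about 1 gene in a list of 10. Among 10 astrocyte endfoot genes 1 had an unadjusted p under 0.05, Mlc1, which encodes a membrane protein of endfeet around vessels, with a log2 fold change of 0.094 (adjusted p = 0.315), and Agt had the largest difference, 0.17 (adjusted p = 0.716). Among 10 genes of microglia and border macrophages none did, with a median of 0.099 and 8 positive, and C1qa had 0.15 and Lyve1 0.44 (adjusted p = 0.454 and 0.551). Of 8 pyramidal cell genes Spock1 did, with -0.088 (adjusted p = 0.417), and of 7 granule cell genes none did, with a median of -0.093 and values of -0.14 for Prox1 and -0.13 for Stxbp6. Fibroblast genes had a median of 0.037, with 0.76 for Igf2 (adjusted p = 0.487). Red blood cell genes had a median of 0.25, with 0.40 for Hbb-bt (adjusted p = 0.525), and their summed level was 138 to 450 CPM in MS and 144 to 426 CPM in SR. Genes of striatal neurons were positive in 8 of 8 with a median of 0.47, but without mouse B1 only 1 of 8 was positive and the median was -0.46. B1 had 131 CPM of Penk, where the other 7 MS mice had 13.7 to 23.4. The fit without B1 kept SR mouse E2, which had 81.6 CPM of Penk, where the other SR mice had 13.9 to 24.5. The summed level of the striatal genes was 86.6 to 700 CPM in MS and 92.2 to 437 CPM in SR. The part of these tissues in the values of the endothelial genes was not tested.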
